A study of Mus musculus with 2 samples.

Results

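The Hist1h genes are the clustered histone genes of mouse chromosome 13. They were taken by name alone, as every gene symbol in the deposited tables that begins with Hist1h, which gave 54 of 32285 genes. Of these, 6 encode linker histone H1, 13 encode H2A, 15 encode H2B, 9 encode H3 and 11 encode H4. All 54 were matched by gene ID to the GENCODE M21 annotation, whose build, GRCm38, is the mm10 build named in the submitters' processing notes. The study profiled single cells of the stromal vascular fraction, the cells left when the fat cells are removed, of mouse epididymal white fat after 10 weeks of high-fat diet. It has 2 libraries, 1 from a Camk2d myeloid conditional knockout and 1 from wild type, both on the same diet. The labels used here do not give the Cre driver, the deleted exons, the age or the number of animals behind a library, and a free-text label of both libraries names embryonic hindlimb where the tissue label names epididymal fat. With 1 library per genotype no test across animals could be made, so intervals below are exact 95% intervals that cover counting error only.

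A nucleosome is DNA wound on an octamer of the core histones H2A, H2B, H3 and H4, and linker histone H1 sits where the DNA enters and leaves it. Most Hist1h genes are known as replication-dependent: their mRNAs are made in bulk in S phase and end in a conserved stem-loop, bound by the protein Slbp, in place of a poly(A) tail. Some members are also known to give polyadenylated mRNAs outside S phase, and both libraries are labelled as polyA RNA.

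The stem-loop sequences below are shown because they are the feature that separates most Hist1h transcripts from other mRNAs. The search asked for 6 paired bases beginning with GG, a loop of TTT followed by A, C or G, and the reverse complement of the stem. The 4 bases of the loop are in capitals and the stem is in lower case. The first and the second differ in the loop, and the last pair differ from them in the stem.
Hist1h1e: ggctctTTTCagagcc
Hist1h3e: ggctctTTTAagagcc
Hist1h4d: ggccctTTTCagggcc
Hist1h4b: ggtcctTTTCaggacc
The first form followed the stop codon of 19 members, the second of 6, the third of 6 and the fourth of 2, in the longest annotated transcript. In all, 33 of the 54 members held 1 of these 4 forms of 16 bases, against 68 of all 55450 annotated genes (0.123%) anywhere in a transcript. The first form was shared by Hist1h1e, Hist1h1c, Hist1h1d, Hist1h2ap and Hist1h2ae, and the third by the H4 genes Hist1h4d and Hist1h4h.

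The annotated transcripts ended in 4 ways. In 18 members the model ended within 100 bases after the loop, and in 15 it ran on for over 100 bases. In another 15 the model stopped within 100 bases of the stop codon with no loop in it, so a loop beyond its end could not be seen. The remaining 6 had over 100 bases after the stop codon and no such sequence. Hist1h2bc belongs to these 6: its model has 2 exons and 742 bases after the stop codon. Of all members, 49 had 1 exon, and 13 held the poly(A) signal AATAAA after the stop codon.

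RefSeq promoters (GRCm38.p6, 250 bases before to 50 after the start) matched 51 of the 54 members. Motifs were searched on both strands. TATAAA was in 60.8% of the matched Hist1h promoters and 14.2% of all 27025 promoters. CCAAT was in 84.3% against 37.9%: every matched H1, H2A, H2B and H3 promoter held it, and 3 of the 11 H4 promoters. ATTTGCAT, the octamer, was in 19.6% against 1.75%, and all 10 Hist1h promoters that held it belonged to H2A or H2B genes. AAACACA was in 17.6% against 7.14%, and in 5 of the 6 H1 promoters. The 200 bases before the start of 4 members are printed 5′ to 3′ with these motifs in capitals (ATTGG is CCAAT on the other strand). Hist1h1e and Hist1h1b are shown because both carry the same 3 motifs and yet had very different resting levels, and Hist1h3e and Hist1h4d because they had the most UMIs of the H3 and H4 genes. They lie at chr13:23622559-23622758 (minus strand), chr13:21780626-21780825 (minus), chr13:23562386-23562585 (minus) and chr13:23581368-23581567 (plus).
Hist1h1e: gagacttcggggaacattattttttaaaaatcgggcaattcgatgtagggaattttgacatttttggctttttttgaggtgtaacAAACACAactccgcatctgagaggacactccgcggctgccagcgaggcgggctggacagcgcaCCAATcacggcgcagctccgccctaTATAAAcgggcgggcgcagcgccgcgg
Hist1h1b: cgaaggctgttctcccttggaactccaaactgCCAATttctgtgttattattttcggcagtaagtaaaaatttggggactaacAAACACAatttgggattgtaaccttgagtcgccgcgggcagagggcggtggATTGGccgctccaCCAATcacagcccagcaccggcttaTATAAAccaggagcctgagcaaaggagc
Hist1h3e: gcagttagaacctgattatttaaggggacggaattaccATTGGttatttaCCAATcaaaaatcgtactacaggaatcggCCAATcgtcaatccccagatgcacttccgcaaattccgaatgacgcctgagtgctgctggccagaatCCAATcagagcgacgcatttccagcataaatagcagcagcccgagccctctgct
Hist1h4d: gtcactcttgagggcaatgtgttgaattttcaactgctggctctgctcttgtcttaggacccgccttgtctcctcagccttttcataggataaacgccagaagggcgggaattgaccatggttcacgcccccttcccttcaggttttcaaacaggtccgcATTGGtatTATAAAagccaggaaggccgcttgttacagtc
A match is a description of the letters and says nothing about binding.

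The knockout library held 10631 barcodes and 87015918 UMIs, and the wild-type library 15555 barcodes and 75436677 UMIs. After a filter on depth, genes and mitochondrial share, 9635 and 15332 barcodes were left, with a median of 8315 and 3134 UMIs. The knockout barcodes were deeper in all 6 nucleated gates compared below. Cell types were rebuilt from marker genes, since no annotation of the cells was used, and are therefore called macrophage-like, T-like and so on. Own markers were among the 10 genes with the largest fold in every gate, though Dcn was the only one in the wild-type progenitor-like gate. Barcodes were gated by these markers, so this was largely fixed in advance and does not check the names. No doublet caller was run; barcodes with markers of several lineages (19.2% and 12.4%) were set aside, and 48 barcode sequences occurred in both libraries. Camk2d, the targeted gene, was at 27.1 CPM (UMIs per 1000000 UMIs of the group, 24.7 to 29.6) in the knockout macrophage-like gate and 47.0 CPM (44.0 to 50.2) in the wild-type gate; the labels do not say whether the counted 3′ end lies in the deleted part.

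Hist1h genes made up nearly the same share of the libraries: 51826 UMIs (596 CPM) for the knockout against 44663 UMIs (592 CPM) for the wild type. The 10 members with the most UMIs held 83.5% and 83.3% of them. Hist1h1e, an H1 linker gene (chr13:23620629-23622558, minus strand), had 9479 knockout and 5681 wild-type UMIs, 18.3% and 12.7% of all Hist1h UMIs. Hist1h2bc, an H2B gene (chr13:23684199-23692908, plus), went the other way with 5423 and 7883 UMIs. Hist1h1c had 7082 and 7270, Hist1h4d 7081 and 4348, Hist1h2ap 4391 and 3426, and Hist1h1b 3707 and 3383. Of the other 44 members, 26 had at least 100 UMIs over both libraries. The germ cell genes were all but absent: Hist1h2aa and Hist1h2ba, known from germ cell chromatin, had 0 UMIs, as had Hist1h2bq, and Hist1h1t, the testis H1, had 1 UMI in each library. A UMI counts a captured molecule and is not scaled by length, so an order between genes also holds how well each transcript is captured.

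Near-identical copies limit the count of single members. Of the 54, 22 shared over 50% of their 90-base windows with another gene, among them Hist1h2ap (92.4%), Hist1h2ao (92.8%) and Hist1h2bq (95.1%), and 4 shared none, among them Hist1h1a and Hist1h1b. Hist1h1e overlaps exons of Hist1h2be and Gm11398 on the same strand. Hist1h2ap, Hist1h2ae and Hist1h2ab overlap antisense genes, and the strand setting of the counting is not given in the sources used here. Values for these members are uncertain to that degree. Reads shared by copies may also be missing from the sums by histone type, and not equally: the largest share among the H1 genes was 26.2% (Hist1h1e). How far the sums are affected was not tested.

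Cycling barcodes were defined without any histone gene, by at least 4 of 20 core cell cycle genes, and resting barcodes by none of them. Of the passed barcodes 196 (2.03%) of the knockout and 445 (2.90%) of the wild type were cycling. At least 15 cycling and 50 resting barcodes were found in 6 comparisons within a gate: macrophage-like and T-like in each library, and dendritic-like and progenitor-like in the wild type.

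In each of these comparisons the summed Hist1h level was several-fold higher in cycling than in resting barcodes. In the knockout macrophage-like gate it was 3107 CPM in 59 cycling barcodes and 281 CPM in 762 resting ones, 11.0-fold (10.5 to 11.6). In the wild-type macrophage-like gate it was 2945 CPM in 171 barcodes against 397 CPM in 1083, 7.42-fold (7.11 to 7.76). The T-like gates stood higher in both states. The knockout had 11113 CPM in 42 cycling and 946 CPM in 633 resting T-like barcodes, 11.8-fold (11.3 to 12.3), and the wild type 8349 CPM in 20 and 730 CPM in 526, 11.4-fold (10.6 to 12.3). Wild-type dendritic-like barcodes had 5264 CPM in 19 cycling and 403 CPM in 75 resting ones, 13.05-fold (11.3 to 15.1). The smallest ratio was in wild-type progenitor-like barcodes, with 860.4 CPM in 32 cycling and 254 CPM in 2348 resting ones, 3.39-fold (2.88 to 3.97). That gate also had the fewest core genes, with a mean of 5.75 per cycling barcode against 9.91 in the macrophage-like gate, and was the only one of the 6 whose cycling barcodes were shallower than the resting ones (medians of 3265 and 5587 UMIs). In the other 5 the cycling barcodes were deeper, with medians of 21521 against 10911.5 UMIs and 10982 against 5669 UMIs in the macrophage-like gates and 11944 against 5050 UMIs and 6212.5 against 3740.5 UMIs in the T-like gates (knockout, wild type).

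A member entered the counts below if its mean over both groups was at least 10 CPM and it had at least 30 UMIs. Many members reach that only through the cycling barcodes, so the counts describe and support nothing. In knockout macrophage-like barcodes 22 of the 24 members that passed were at least 2-fold higher in cycling ones, where 6.99% of all genes tested were. In the wild type it was 20 of 21 (6.19% of all genes). In T-like barcodes it was 32 of 32 for the knockout (11.5% of all genes) and 14 of 15 for the wild type (10.6%). In wild-type dendritic-like barcodes it was 12 of 12 (8.5%) and in progenitor-like barcodes 7 of 9 (10.5%). No member that passed was at least 2-fold lower in any of the 6, where 2%, 3.84%, 6.43%, 13.2%, 3.4% and 7.93% of all genes were, in that order. The median log2 ratio of the members that passed was 5.12, 4.18, 4.11, 3.28, 3.84 and 2.13 in that order, beside 0.14, 0.11, 0.12, 0.06, 0.14 and 0.10 over all genes tested.

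Barcodes with more core genes detected mostly had more Hist1h UMIs. In wild-type macrophage-like barcodes the level was 397 CPM with none, 436 CPM with 1 to 3, 738 CPM with 4 to 7 (79 barcodes), 2362 CPM with 8 to 13 (35) and 4337 CPM with 14 to 20 (57). Knockout macrophage-like barcodes went from 281 CPM with none to 342 and 279 CPM in the next bins (408 and 23 barcodes), then 1239 CPM (9) and 5639 CPM (27). In T-like barcodes of the knockout it was 946, 1256, 1843, 5605 and 15748 CPM, and of the wild type 730, 735, 613, 10012 and 9494 CPM. The upper bins of the T-like gates hold few barcodes, 12, 8 and 22 for the knockout and 6, 5 and 9 for the wild type. In both macrophage-like gates and the knockout T-like gate the highest bin stood above all others, whereas knockout macrophage-like barcodes with 4 to 7 core genes and wild-type T-like ones did not exceed the resting level.

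**Figure D1:**
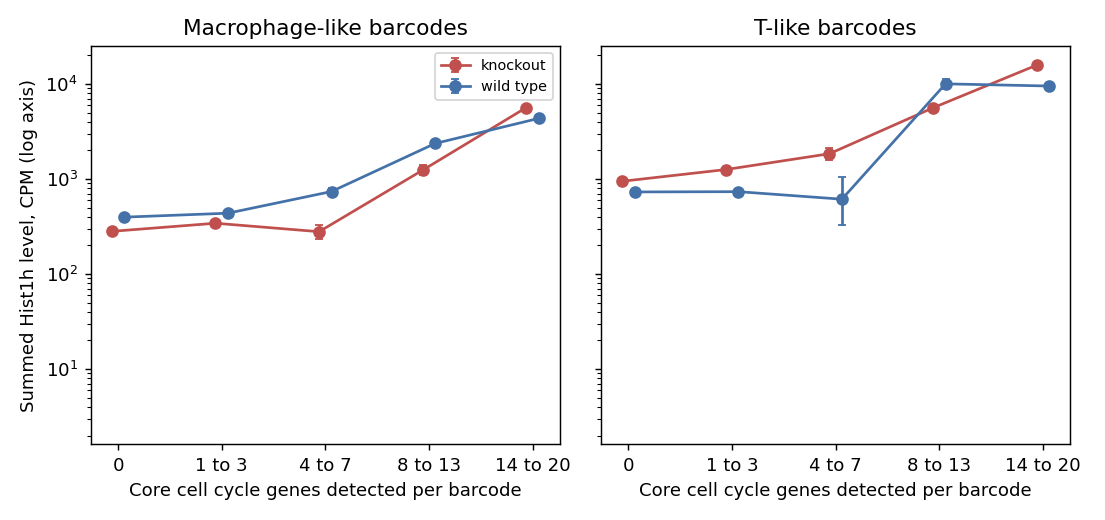
Summed Hist1h level in CPM (log axis) against the number of core cell cycle genes detected per barcode, for macrophage-like and T-like barcodes of each library, with exact 95% counting intervals. In macrophage-like barcodes the level goes from 281 and 397 CPM with no core gene to 5639 and 4337 CPM with 14 to 20.

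The histone types did not rise alike. H2A had the steepest rise among the 5 types in 6 of 6 comparisons. Its sum went from 10.3 to 984 CPM in knockout macrophage-like barcodes (log2 ratio 6.58), from 24.6 to 875 CPM in wild-type ones (5.15), and in T-like barcodes from 44.9 to 3151 CPM for the knockout (6.13) and from 52.2 to 2348 CPM in the wild type (5.49). H1 was the largest type at rest in T-like barcodes, 556 CPM (knockout) and 418 CPM (wild type), and reached 4094 and 3104 CPM (log2 2.88 and 2.89). H2B rose least in both macrophage-like gates, from 106 to 251 CPM (1.24) and from 154 to 385 CPM (1.32). In the T-like gates H2B rose from 50.4 to 866 CPM (4.103) and from 69.1 to 564 CPM (3.03). H3 went from 6.34 to 322 CPM and from 15.1 to 278 CPM in macrophage-like barcodes (5.67 and 4.202), and H4 from 41.9 to 538 CPM and from 51.3 to 411 CPM (3.68 and 3.001).

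The make-up of the Hist1h UMIs changed accordingly. H1 and H2B together led the resting macrophage-like barcodes, with 41.5% and 37.7% for the knockout and 38.1% and 38.9% for the wild type. In the cycling ones H2B held 8.09% and 13.1%, while H2A went from 3.64% to 31.7% and from 6.19% to 29.7%. In resting T-like barcodes H1 held 58.7% and 57.2%, and in cycling ones 36.8% and 37.2%. Cycling macrophage-like and T-like barcodes were thus closer to each other in make-up than the resting ones were; this was not tested. The plot of summed levels by histone type shows the smaller rise of H2B in the macrophage-like panel beside the steep one of H2A.

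**Figure D2:**
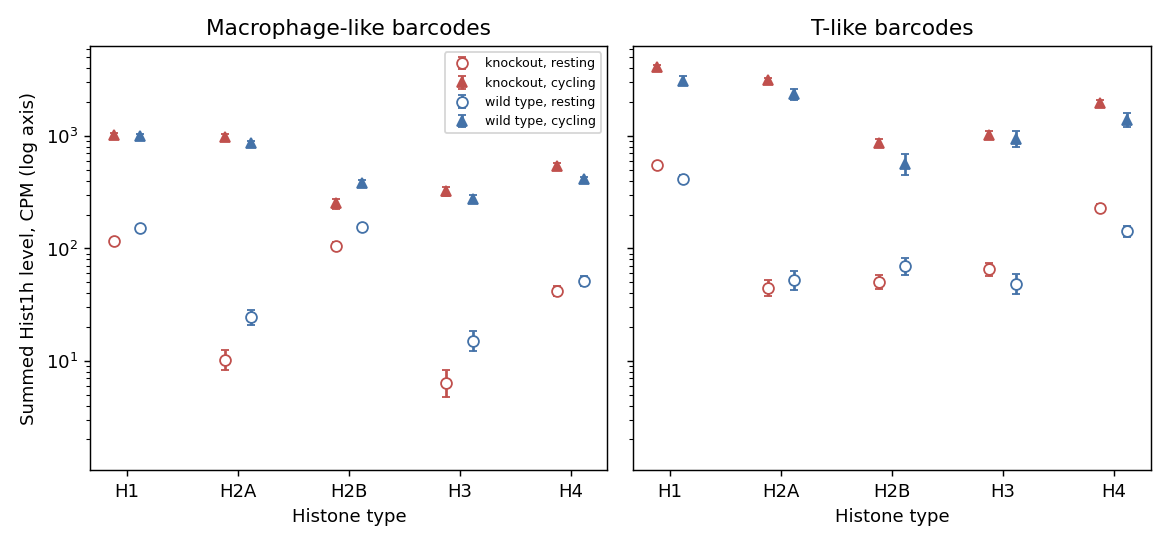
Summed Hist1h level in CPM (log axis) of each histone type in resting and cycling barcodes of each library, with exact 95% counting intervals. In macrophage-like barcodes H2B goes from 106 to 251 CPM (knockout) and from 154 to 385 CPM (wild type), and H2A from 10.3 to 984 CPM and from 24.6 to 875 CPM.

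Among the H1 genes, Hist1h1e and Hist1h1c were abundant at rest and Hist1h1b was not. H1 proteins bind linker DNA and compact chromatin, and the members other than Hist1h1t encode its somatic subtypes. Over the 14 resting groups (7 gates in 2 libraries, erythroid-like ones included) Hist1h1e ran from 18.4 CPM in knockout macrophage-like barcodes to 835 CPM in knockout NK-like ones, with a median of 67.8 CPM. In the 6 cycling groups it ran from 149 CPM (wild-type progenitor-like) to 1402 CPM (knockout T-like). Its resting levels were highest in lymphocytes: 835 and 486 CPM (knockout, wild type) in NK-like, 352 and 91.8 CPM in B-like, 288 and 189 CPM in T-like, but 81.1 and 54.6 CPM in dendritic-like, 38.0 and 33.9 CPM in progenitor-like and 18.4 and 23.8 CPM in macrophage-like barcodes. In both libraries the 3 lymphocyte gates stood above all other gates for Hist1h1e. The same held for 4 of the 11 members with a mean of at least 10 CPM over these groups (the others were Hist1h4d, Hist1h4h and Hist1h2be, which overlaps Hist1h1e) and for 7.39% of all 7837 genes.

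Hist1h1c, an H1 gene whose transcript model runs on past its loop (chr13:23738808-23740367, plus), was flatter. Its resting level was 307 and 209 CPM in NK-like, 207 and 160.5 CPM in T-like, 167 and 83.1 CPM in B-like, 93.2 and 112 CPM in macrophage-like and 24.4 and 43.3 CPM in progenitor-like barcodes. Its cycling level was only 158 and 229 CPM in macrophage-like and 508 and 484 CPM in T-like barcodes, log2 ratios of 0.76, 1.03, 1.29 and 1.59. Hist1h1e rose more, by log2 4.04 and 3.32 in macrophage-like and 2.28 and 2.43 in T-like barcodes.

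Hist1h1b (chr13:21779883-21780625, minus), an H1 gene with no shared window, stood low at rest and high in cycling barcodes. It was at 2.88 and 9.62 CPM in resting macrophage-like and 11.9 and 22.7 CPM in resting T-like barcodes, and at 448, 425, 1663 and 1214 CPM in the cycling ones. The log2 ratios were 7.28 (6.71 to 7.92), 5.46 (5.11 to 5.84), 7.12 (6.67 to 7.61) and 5.74 (5.27 to 6.23). Hist1h1d had a median of 15.4 CPM over the 14 resting groups of all gates, which is no resting level of a single gate. It was at 64.8 and 69.7 CPM in cycling macrophage-like and 457 and 305 CPM in cycling T-like barcodes. Hist1h1a, for which the resting median was 2.21 CPM, ran from 5.31 to 79.6 CPM in the cycling groups.

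The H2A genes were low in resting and high in cycling barcodes. H2A forms, with H2B, the outer dimers of the octamer. Hist1h2ap, the H2A gene with the most UMIs (chr13:21833026-21833507, minus), was at 4.61 and 13.5 CPM in resting macrophage-like and 22.4 and 21.3 CPM in resting T-like barcodes. In cycling ones it was at 467, 475, 1767 and 1319.7 CPM, log2 ratios of 6.66 (6.20 to 7.16), 5.14 (4.83 to 5.45), 6.30 (5.96 to 6.65) and 5.96 (5.48 to 6.46). It also had the largest ratio of all members that passed in wild-type dendritic-like (6.18) and progenitor-like barcodes (4.96). Hist1h2ae had a median of 9.32 CPM over the 14 resting groups of all gates. In cycling barcodes it was at 270.2 and 252 CPM in the macrophage-like and 609 and 524 CPM in the T-like gates. In wild-type macrophage-like barcodes it had the largest ratio of all, 5.49 (5.02 to 5.995).

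Among the H2B genes, Hist1h2bc behaved unlike the other leading members. It was at 100.3 and 145 CPM in resting macrophage-like barcodes, the highest pair of its 14 resting groups, and at 72.9 and 219 CPM in cycling ones. The knockout log2 ratio was -0.46 (-0.76 to -0.17) and the wild-type one 0.60 (0.45 to 0.75), so the 2 libraries differed in sign. In wild-type T-like (0.23, -1.13 to 1.34) and progenitor-like barcodes (0.35, -0.39 to 1.00) the interval spans 0, with 7 and 19 cycling UMIs. Hist1h2bc had the smallest ratio of the members that passed in 5 of the 6 comparisons, the exception being knockout T-like barcodes (2.08), where the smallest was the H4 gene Hist1h4c (1.06). In wild-type dendritic-like barcodes its ratio was 1.30 (0.36 to 2.25). Other H2B genes did rise. Hist1h2bj, low at rest (median 3.38 CPM over the 14 resting groups), reached 197 CPM in cycling knockout T-like barcodes. Hist1h2bb reached 139 CPM there and Hist1h2be 137 CPM.

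H3 genes encode the core histone whose tail carries many of the known regulatory marks. Hist1h3e, with the most UMIs of them (chr13:23561534-23562369, minus), was at 2.99 and 5.75 CPM in resting macrophage-like and 35.0 and 25.1 CPM in resting T-like barcodes, and at 90.5, 79.3, 313 and 318 CPM in cycling ones. Its log2 ratios were 4.92, 3.79, 3.16 and 3.66. Hist1h3c was close to absent at rest, with 3, 22, 1 and 5 UMIs in those 4 gates, and at 91.2, 89.2, 274 and 312 CPM in cycling barcodes. It had the largest ratio in both T-like gates, 9.88 for the knockout (7.38 to 15.2) and 7.01 for the wild type (5.69 to 8.70). The largest in knockout macrophage-like barcodes was Hist1h3f (8.96, 6.44 to 14.3), with 85 cycling UMIs and 1 resting UMI.

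H4 genes encode the most conserved of the core histones, and Hist1h4d (chr13:23581598-23582735, plus) led them. It was already at 24.2 and 24.1 CPM in resting macrophage-like, 156 and 93.8 CPM in T-like and 186 and 116 CPM in NK-like barcodes. In cycling barcodes it was at 371 and 271 CPM in the macrophage-like and 1470.1 and 909 CPM in the T-like gates, log2 ratios of 3.94, 3.49, 3.23 and 3.28. Hist1h4h rose by 3.92, 2.91, 3.18 and 3.44. The ratios of both H4 genes lay in a narrower range over the 4 gates than those of the H2A genes Hist1h2ap and Hist1h2ae, and below them in each gate.

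Outside the 10 leading members, all that passed were at least 2-fold higher in cycling barcodes: 14 and 11 in the macrophage-like gates and 22 and 5 in the T-like gates of the knockout and the wild type, where 6.99%, 6.19%, 11.5% and 10.6% of all genes were. Most of these members pass the filter only through the cycling barcodes, so nothing is read from the count. The sparsest members gave no usable ratio: Hist1h2ah, for example, was detected in 1 of 14 resting and 2 of 6 cycling groups. The plot of cycling against resting levels shows Hist1h2bc and Hist1h1c near the diagonal in macrophage-like barcodes, Hist1h4c and Hist1h1c nearer to it than Hist1h2bc in knockout T-like ones, and Hist1h1b, Hist1h2ap and Hist1h2ae far above it, and the heat map shows the same split over all groups.

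**Figure D3:**
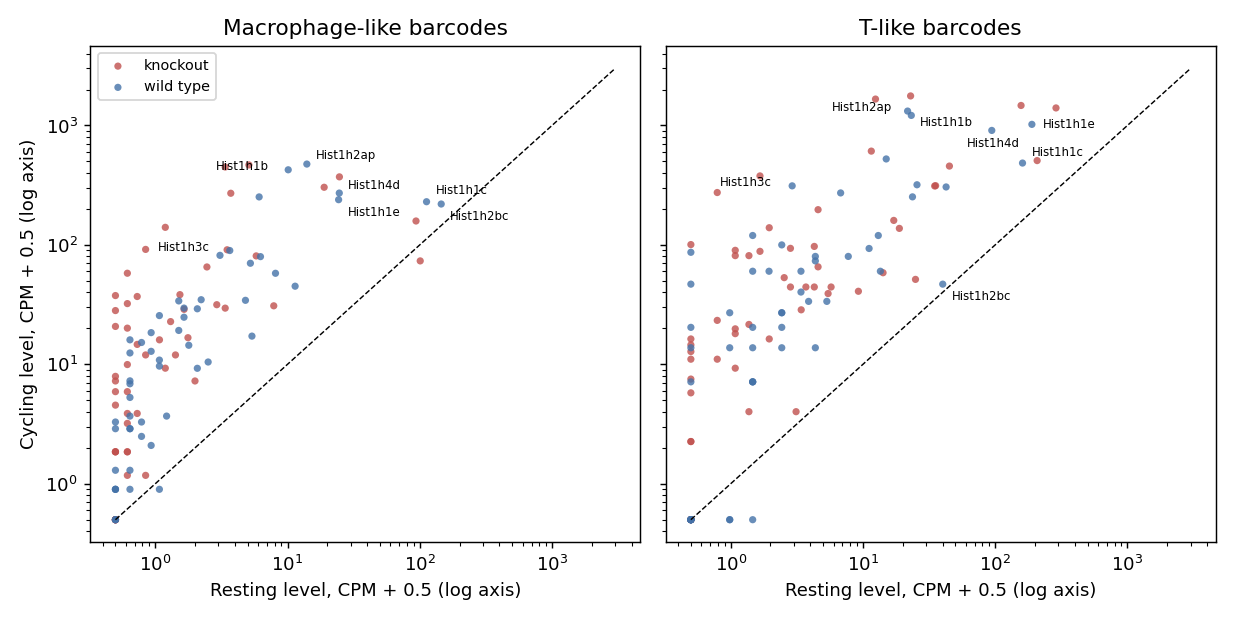
Cycling against resting level of each Hist1h gene, both in CPM + 0.5 on log axes, in macrophage-like and T-like barcodes of each library; the dashed line marks equal levels. Hist1h2bc lies near the line in the macrophage-like panel (100.3 and 145 CPM at rest, 72.9 and 219 CPM cycling), while Hist1h1b lies far above it.

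**Figure D4:**
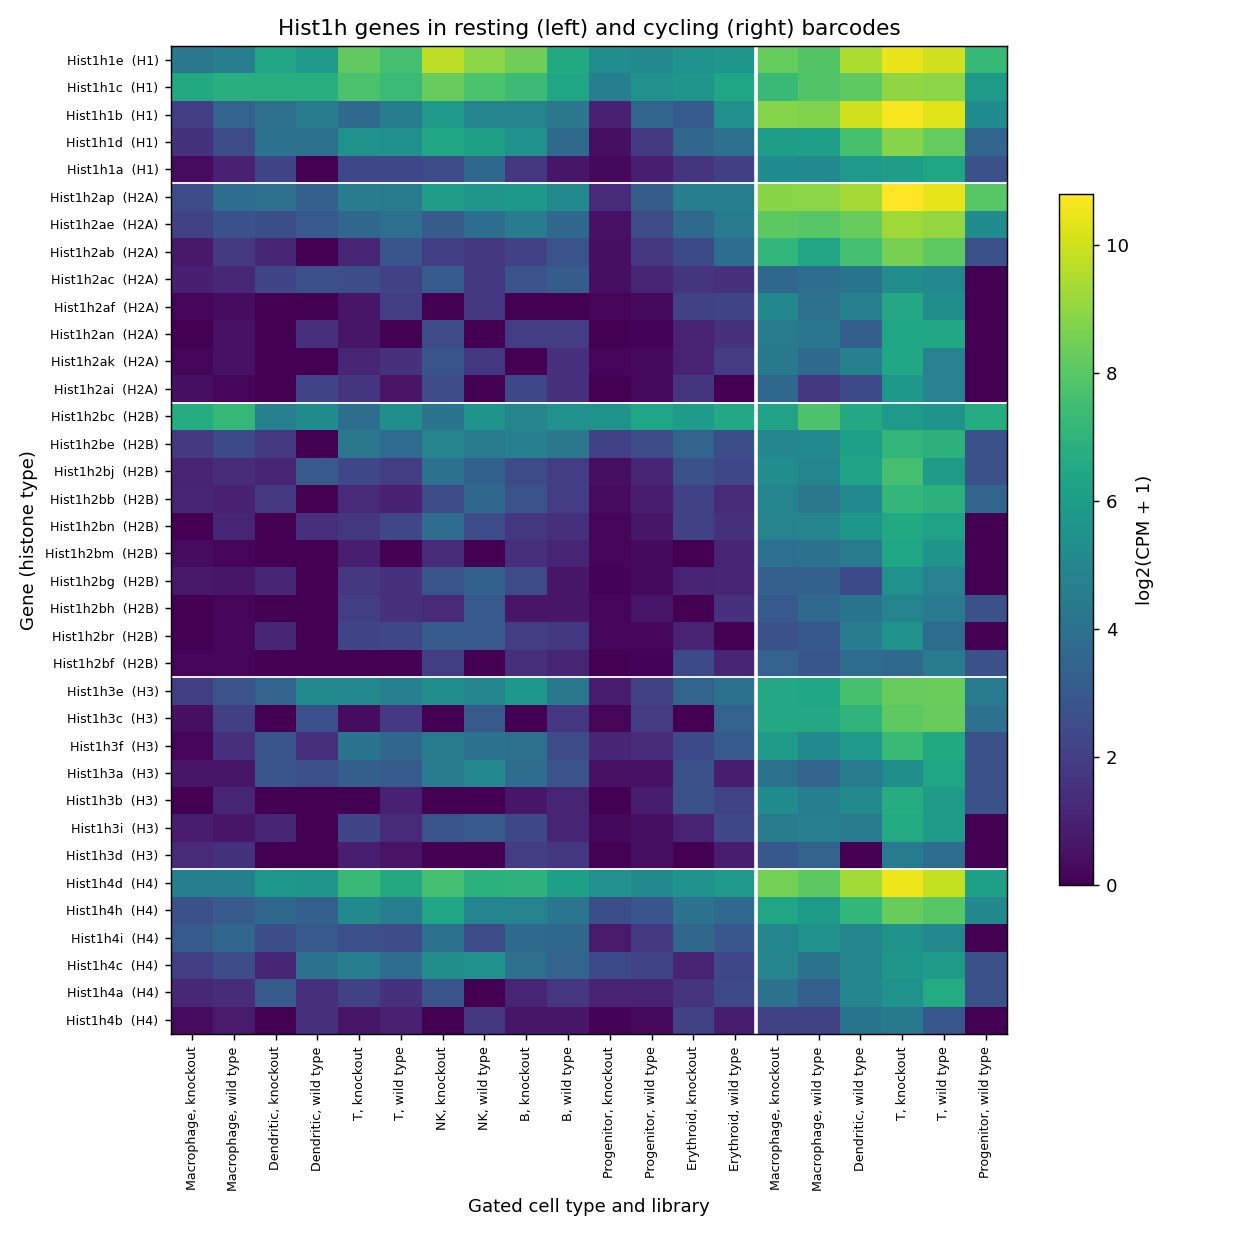
Level of the 36 members with at least 100 UMIs as log2(CPM + 1), with the 14 resting groups on the left and the 6 cycling groups on the right. Hist1h1e, Hist1h1c, Hist1h2bc and Hist1h4d are visible at rest, and most other members mainly in the cycling columns.

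By transcript model, members whose model runs on past the loop held 54.3% and 48.2% of Hist1h UMIs in resting macrophage-like barcodes and 86.0% and 77.9% in resting T-like ones (knockout, wild type). In cycling barcodes their share was lower: 45.4%, 43.2%, 47.2% and 47.0%. Members whose model ends within 100 bases after the loop went from 5.24% and 8.51% to 30.4% and 27.8% in the macrophage-like gates, and from 8.29% and 9.73% to 30.5% and 31.2% in the T-like gates. The 6 long models without a loop, Hist1h2bc among them, went from 38.8% and 39.7% to 4.11% and 9.52% in the macrophage-like gates. How much of each member's RNA carries a poly(A) tail was not tested.

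Within cycling barcodes, those weighted to S phase genes had the lower Hist1h level. Replication-dependent histone mRNA is known to be most abundant in S phase. In the pooled 6 nucleated gates of the knockout it was 3199 CPM in 31 S-weighted and 6501 CPM in 92 G2M-weighted barcodes, log2 -1.02 (-1.09 to -0.96), and in the wild type 1905 CPM in 64 and 3888 CPM in 185, -1.03 (-1.10 to -0.96). The same sign was seen within knockout macrophage-like (-1.17; 14 and 45 barcodes), knockout T-like (-0.94; 12 and 30) and wild-type macrophage-like barcodes (-0.87; 48 and 120). Of the members that passed, 18 of 33 for the knockout (8.32% of all genes tested) and 16 of 30 for the wild type (6.4%) were at least 2-fold lower in S-weighted barcodes, and none was higher (4.34% and 2.05%). Hist1h4d (-1.89 and -1.41) and Hist1h1e (-1.30 and -1.55) differed more than Hist1h1b (-0.67 and -0.82) and Hist1h2bc (-0.60 and -0.39). The extremes among the members that passed were Hist1h2ai (-2.25) and Hist1h2an (0.41) in the knockout and Hist1h2bb (-2.34) and Hist1h2ak (-0.00053) in the wild type. Within gates they were Hist1h2af (-2.73, -5.06 to -1.09) and Hist1h2an (1.15) in knockout macrophage-like, Hist1h2ai (-3.59, -8.94 to -0.998, with 1 S-weighted UMI) and Hist1h3i (0.35) in knockout T-like, and Hist1h2bb (-2.54) and Hist1h2an (0.08) in wild-type macrophage-like barcodes. The S-weighted barcodes also had fewer core genes, with means of 8.35 against 13.4 for the knockout and 8.39 against 10.1 for the wild type. Barcodes were weighted by which of an S and a G2M gene list had more UMIs. Most core genes, among them Mki67, Top2a and Cdk1, are also in the G2M list, and only Rrm2 is in the S list. The gap in core genes was therefore largely fixed by the lists. When cycling was set at 8 core genes the log2 ratio was -0.21 and -0.63. The S-weighted barcodes were also deeper, with medians of 18944 against 16444.5 UMIs in the knockout and 17276 against 7440 UMIs in the wild type. The part of core gene number and depth in this difference was otherwise not tested. Phase was compared only among barcodes already selected by at least 4 core genes. Any S phase cells with fewer core genes were therefore left out. The comparison cannot decide in which phase the Hist1h level is higher, and no order of phases is read from it.

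Between the libraries, the resting Hist1h level was higher in the knockout in the 3 lymphocyte gates and lower in the macrophage-like and progenitor-like gates. It was 1041 against 498 CPM in B-like (log2 of knockout over wild type 1.06, 0.95 to 1.18), 1901 against 1295 CPM in NK-like (0.55, 0.41 to 0.70) and 946 against 730 CPM in T-like barcodes (0.37, 0.28 to 0.46). It was 281 against 397 CPM in macrophage-like (-0.50, -0.57 to -0.42) and 174 against 254 CPM in progenitor-like barcodes (-0.54, -0.60 to -0.48). In dendritic-like barcodes the 390.4 and 403 CPM could not be told apart within counting error (-0.05, -0.30 to 0.21). Erythroid-like barcodes, which should hold little histone mRNA of their own once mature and served as a reference for free RNA, were at 363 and 491 CPM (-0.44). Resting macrophage-like, dendritic-like and progenitor-like sums were thus near or below that reference in both libraries. The lymphocyte sums were above it, apart from wild-type B-like barcodes, which were level with it. Haemoglobin genes take up part of the erythroid-like UMIs (Hbb-bs alone 155920 and 104392 CPM), which lowers the CPM of other genes there. Detection shares given below are affected likewise. Of all resting groups, wild-type erythroid-like barcodes had the highest Hist1h2ab (13.9 CPM) and Hist1h3c (9.62 CPM). Whether they hold histone mRNA of their own was not tested, so the reference is a rough one.

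Several measures differed between the libraries alongside these values. Median UMIs of resting barcodes were 10911.5 and 5669 in macrophage-like, 5050 and 3740.5 in T-like, 5844 and 4145 in NK-like, 5384 and 4234.5 in B-like and 10265 and 5587 in progenitor-like gates. Progenitor markers summed to 291 and 1323 CPM in T-like, 304 and 1332 CPM in NK-like, 279 and 1099 CPM in B-like and 239.6 and 956 CPM in macrophage-like barcodes. Haemoglobin markers summed to 2127 and 5089.97 CPM in B-like and 1471 and 4252 CPM in macrophage-like barcodes. Macrophage markers summed to 213 and 817 CPM in T-like and 179.6 and 643.5 CPM in B-like barcodes. Monocyte markers ran the other way, with 673 and 472 CPM in T-like and 1199 and 784 CPM in NK-like barcodes. Of the 16 marker lists of other types, 12 were higher in the wild type and 4 in the knockout in macrophage-like, dendritic-like and progenitor-like barcodes, and 11 and 5 in T-like, NK-like and B-like ones. Their part in the Hist1h differences was not tested.

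In B-like barcodes 4 of the 13 members that passed were higher by at least 2-fold in the knockout, against 3.59% of all genes tested, and none was lower (6.79%). Hist1h1e was at 352 against 91.8 CPM (1.94, 1.68 to 2.20), Hist1h1d at 45.0 against 12.2 CPM (1.88, 1.18 to 2.65), Hist1h3e at 53.6 against 19.2 CPM (1.48, 0.90 to 2.10) and Hist1h1c at 167 against 83.1 CPM (1.01, 0.71 to 1.31). By type, H1 differed most (594 against 206 CPM, 1.53), then H3 (1.27), H4 (0.73) and H2A (0.47), while H2B was at 79.3 and 75.5 CPM (0.07, -0.29 to 0.42). The smallest member ratio was that of Hist1h2bc (29.6 against 42.4 CPM, -0.52, -1.06 to 0.02). Plasma markers were at 1373 and 1184 CPM in the 2 B-like gates and B markers at 4758 and 3887 CPM.

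In NK-like barcodes 2 of 10 members were higher (2.93% of all genes) and 1 was lower (4.66%). The higher ones were Hist1h4h (83.2 against 27.9 CPM, 1.58) and Hist1h1b (55.95 against 27.9 CPM, 1.00, 0.03 to 2.08), the lower one Hist1h2bc (16.6 against 46.5 CPM, -1.48). In T-like barcodes none of 13 was higher (1.27%) and Hist1h2bc alone was lower (7.07%), at 13.7 against 39.6 CPM (-1.53, -2.08 to -0.999), while Hist1h4c had the largest ratio (0.91). None of the 4 members that passed in macrophage-like (1.3% higher, 2.06% lower), dendritic-like (2.78% and 3.29%) and progenitor-like barcodes (1% and 2.77%) differed 2-fold. The ratios of these 4 in macrophage-like barcodes ran from -0.53 (Hist1h2bc) to 0.00 (Hist1h4d), and in progenitor-like ones from -0.83 (Hist1h1c) to 0.35 (Hist1h4d). In dendritic-like barcodes they ran from -0.57 (Hist1h2bc, -1.53 to 0.39) to 0.57 (Hist1h1e, -0.07 to 1.24), with intervals that span 0. In erythroid-like barcodes 1 of 10 was lower (5.98% of all genes, with 3.84% higher), Hist1h1b at 7.52 against 41.6 CPM. The largest ratio there was that of Hist1h4h (0.43). No H2A or H3 member passed in macrophage-like or progenitor-like barcodes, yet their sums differed over 2-fold. In macrophage-like barcodes H2A was at 10.3 against 24.6 CPM (-1.26) and H3 at 6.34 against 15.1 CPM (-1.25). In progenitor-like ones H2A was at 2.81 against 17.3 CPM (-2.62) and H3 at 2.72 against 9.66 CPM (-1.83). The H1, H2B and H4 sums differed less than 2-fold in both gates. In erythroid-like barcodes H2A was at 52.7 and 68.1 CPM and H3 at 26.9 and 42.3 CPM (knockout, wild type). The H2A and H3 sums of the macrophage-like and progenitor-like gates were thus below that reference for free RNA in both libraries. How far free RNA enters these sums was not tested, and no difference between genotypes is read from them.

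**Figure D5:**
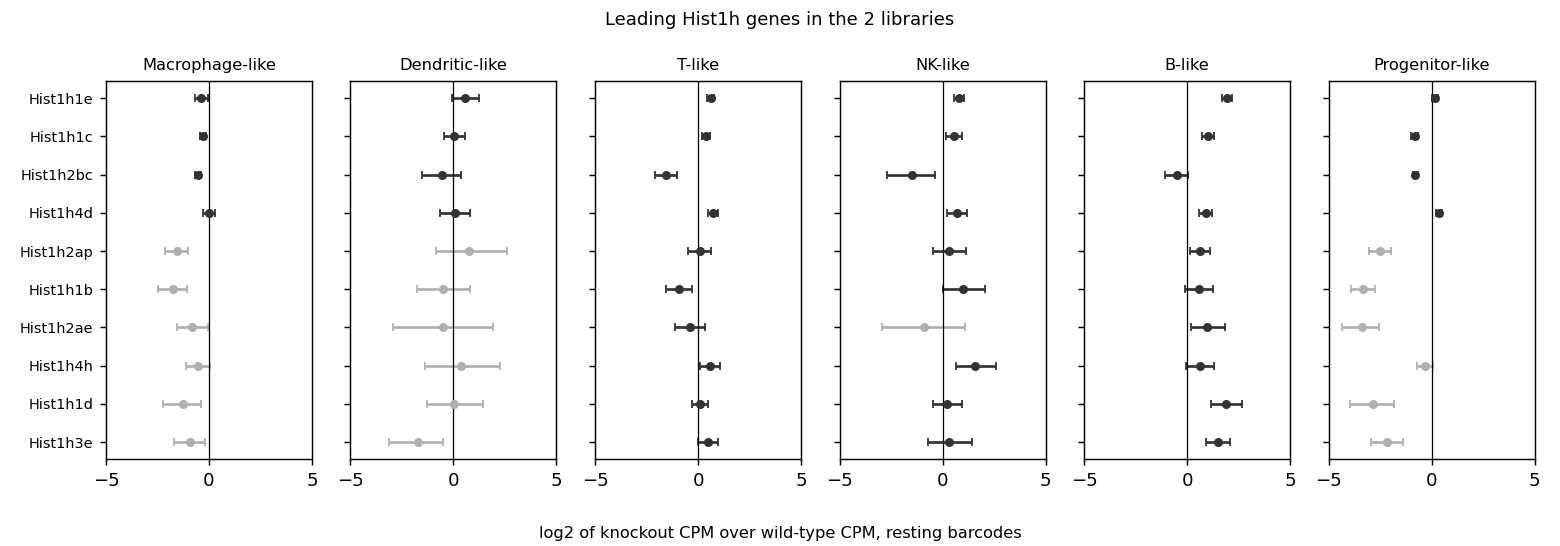
log2 ratio of knockout over wild-type CPM for the 10 leading Hist1h genes in resting barcodes of each gate, with exact 95% counting intervals; grey points did not pass the filter on low values. Hist1h1e lies at 1.94 in the B-like panel and at -0.37 in the macrophage-like panel, and Hist1h2bc lies below 0 in every panel.

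Hist1h2bc had the smallest ratio in 5 of the 6 nucleated gates at rest. To compare detection across depths each barcode was thinned to 2000 UMIs, which left out 18 and 25 T-like barcodes of the knockout and the wild type but most erythroid-like ones (634 and 1012). Hist1h2bc was then found in 2.76% and 7.98% of T-like barcodes and 3.64% and 11.1% of NK-like ones, beside 3.90% and 11.9% of erythroid-like ones (unthinned 5.53%, 13.9%, 9.09%, 19.6%, 6.47% and 15%). The thinned shares in T-like and NK-like barcodes were at or below that reference, with intervals that overlap it, and the unthinned NK-like shares were above it. How far free RNA enters its T-like and NK-like values was not tested, and no difference between genotypes is read from them. In macrophage-like barcodes it was found in 13.6% and 18.3% (unthinned 41.1% and 39.7%), above that reference.

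Hist1h1e was the reverse. It was found in 43.3% (37.3% to 49.4%) of knockout and 18.2% (14.1% to 22.9%) of wild-type B-like barcodes after thinning, and in 59.4% and 30.5% before it. NK-like barcodes had 70% and 46.5% (unthinned 87.3% and 70.6%) and T-like ones 31.5% and 25.3% (49.6% and 38.2%). Macrophage-like barcodes, with 3.08% and 4.098% (13.1% and 12.1%), were below the 5.19% and 9.02% of erythroid-like ones (3.80% and 8.71%; median depths 844 and 1627.5 UMIs), and no expression is read from them.

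In cycling barcodes the summed level was higher in the knockout in both gates compared. Macrophage-like ones were at 3107 against 2945 CPM (0.08, 0.02 to 0.13), a sign that turned (-0.03) when cycling was set at 2 core genes. Of 29 members, 1 was higher (4.15% of all genes), Hist1h2af (31.7 against 14.7 CPM, 1.11), and 1 lower (3.23%), Hist1h2bc (72.9 against 219 CPM, -1.59, -1.90 to -1.29). T-like ones were at 11113 against 8349 CPM (0.41, 0.33 to 0.50), from 42 and 20 barcodes, and the log2 ratio was 1.46 when cycling was set at 2 core genes. There 3 of 29 members were higher (6.76%), Hist1h2ak (1.73), Hist1h2bj (1.72) and Hist1h2af (1.17), and Hist1h4a was lower (-1.18; 3.8%). With 4 to 9 wild-type UMIs for the higher ones, their intervals are wide, and that of Hist1h2af spans 0 (-0.05 to 2.68). In the 6 nucleated gates pooled, the cycling level was 5517 against 3147 CPM (0.81, 0.77 to 0.85), a value of 0.33 when macrophage-like and T-like barcodes were averaged with equal weight. There 15 of 33 members were higher (4.84% of all genes), with the largest ratio for Hist1h2ai (2.61), and Hist1h2bc alone was lower (-1.45; 4.32%).

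Histone genes outside the Hist1h cluster followed in part. Of 13 other clustered histone genes, 2 of 3 and 3 of 4 that passed were at least 2-fold higher in cycling macrophage-like barcodes (knockout, wild type) and 5 of 5 and 3 of 3 in T-like ones, against 6.99%, 6.19%, 11.5% and 10.6% of all genes, with Hist2h2ac at log2 4.23, 3.80, 2.83 and 3.44. Many of the 11 replacement histone genes are known to be made throughout the cycle. Of 9 that passed, 4 were higher in each of the 4 gates (the same shares of all genes apply). None was lower (2%, 3.84%, 6.43% and 13.2% of all genes), and the medians were 0.84, 0.66, 0.36 and 0.59. H2afx, the variant marked at DNA breaks, rose by 3.96, 2.95, 3.75 and 4.29, Cenpa of the centromere by 2.72, 2.54, 2.56 and 2.93, and H2afz by 1.83, 1.75, 2.05 and 2.31. The H3.3 gene H3f3b was at -0.26, -0.09, 0.18 and 0.22 and H3f3a at 0.32, 0.15, 0.36 and 0.59.

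Genes for histone mRNA processing that passed had a median log2 ratio of 0.38, 0.66, 0.79 and 0.42 in the same 4 gates, beside 0.14, 0.11, 0.12 and 0.06 over all genes. Many Hist1h members passed the filter only through the cycling barcodes, so their medians are not set against these. Of the 13 genes of this list none of the 11 that passed, then 1 of 12, 5 of 12 and 5 of 12, were 2-fold higher, against 6.99%, 6.19%, 11.5% and 10.6% of all genes (2 were lower in wild-type T-like barcodes, against 13.2%). Slbp, the stem-loop binding protein, was at 0.85, 1.08, 1.32 and 2.05, and Npat, the activator of histone transcription, at 0.61, 0.42, 1.13 and 1.78. Of 14 histone chaperone genes 6 of 12, 8 of 14, 9 of 13 and 8 of 10 were higher, against those same 6.99%, 6.19%, 11.5% and 10.6%, with medians of 1.06, 1.09, 1.14 and 1.25. Asf1b was at 3.85, 4.16 and 4.88 in the first 3 of these gates and did not pass in the last, and Nasp, a carrier of H3 and H4, at 1.30, 1.19, 1.71 and 1.4998.

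Over 18 points (gated types by library and state) and 8170 genes, the genes whose log2(CPM + 1) pattern was most like that of a leading member were found by Pearson's r, as a description. The points share 2 libraries and differ in depth. For Hist1h1e they were Hist1h3a (0.95), Cenpq (0.94) and Hist1h1d (0.94), for Hist1h2ap Hist1h2ae (0.97), Racgap1 (0.96) and Hist1h1b (0.96), and for Hist1h4d Hist1h3f (0.97), Hist1h4h (0.97) and Hist2h2ac (0.96). For Hist1h3e they were Hist1h1d (0.96), Snrpe (0.95) and Hmgb2 (0.95). Hist1h2bc was the exception among the 5, with no histone gene among its nearest, which were Dbi (0.92), Prdx1 (0.91) and Phf20 (0.90).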

How the data were processed

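Single-cell RNA-seq was deposited as 1 matrix of raw UMI counts per library, made by the authors with Cell Ranger 5.0.0 per the file headers; the submitters' processing notes also name Seurat 4.1.1 and mm10. The annotation release is not given in the sources used here. Barcodes with at least 500 UMIs, 200 genes and at most 20% mitochondrial UMIs were kept (996 knockout and 223 wild-type barcodes failed). A barcode entered a gate with at least 3 markers of its list and UMIs of at least 4 plus 5 times the background rate of that list, in a single lineage. Levels are UMIs summed over the barcodes of a group, per 1000000 UMIs (CPM), with Poisson intervals, ratios have conditional exact intervals and shares Clopper-Pearson ones; a sum of 0 UMIs was set to 3 for a ratio. Intervals cover counting error only. Python 3.11.15, numpy 2.4.6, scipy 1.17.1 and pandas 2.3.3 were used. The ratio calls were tried on Poisson counts simulated for knockout macrophage-like barcodes, without spread between barcodes or animals. The intervals assume the same model, so spread beyond counting error was not covered.

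Full values were given for the 10 members with the most UMIs, the leading member of each histone type, 3 germ cell members, and the largest and smallest ratio of each comparison, those of the pooled cycling against resting comparison aside. The members, lists and comparisons were chosen with earlier results of these data known. Chosen after seeing the files were the gating rule (the second tried; the first, which asked for a lead over the next list, typed few barcodes), the bins of core genes, the search for loop sequences and the 4 motifs, the transcript model classes, the minimum of 15 cycling barcodes and the erythroid-like reference. The alternatives tried were the thresholds for cycling, cell filter, low-level filter and fold, the scaling, per-barcode means, deeper resting barcodes, the phase rule, stricter gates, reweighting of cell types and leaving out the most abundant member.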

Additional observations from a re-analysis of the deposited data

Results flagged for a closer look

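The resting Hist1h sum of the knockout over the wild type had opposite signs in different gates, each with a counting interval clear of 0. On the log2 scale it was 0.37 in T-like, 0.55 in NK-like and 1.06 in B-like barcodes, but -0.50 in macrophage-like and -0.54 in progenitor-like ones. Single H1 members did the same. Hist1h1e was at 1.94 in B-like and -0.37 in macrophage-like barcodes, Hist1h1c at 1.01 in B-like and -0.83 in progenitor-like barcodes, and Hist1h1b at 1.00 in NK-like and -0.93 in T-like barcodes. Each gate has 1 library per genotype, so the difference between gates was not tested. Hist1h1e in macrophage-like barcodes was below the erythroid-like reference for free RNA in both libraries. After thinning, Hist1h1b was found in 5.59% of wild-type T-like and 5.05% of NK-like barcodes, below the 7.22% of erythroid-like ones. In the knockout it was found in 1.95% and 5.45%, beside 0% of erythroid-like ones. How far free RNA enters these values was not tested, and the NK-like interval of Hist1h1b was only just clear of 0.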

How the results depend on the processing

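No paired analysis was possible because each genotype has 1 library. Of 119 alternative values, 68 stayed within the main value's 95% counting interval or, for counts, within 1.5 times. Another 50 moved and 1 turned its sign. A turned sign was counted only where the main interval was clear of 0. The resting dendritic-like ratio of the genotypes, -0.05 with an interval that spans 0, was 0.14 with per-barcode means and counts as having stayed. All values are log2 ratios unless named as counts. For cycling over resting, in the order pooled, macrophage-like and T-like, the reported values were 4.15, 3.47 and 3.55 (knockout) and 3.09, 2.89 and 3.52 (wild type). Cycling at 2 core genes gave 3.02, 2.30 and 3.09, and 1.79, 1.84 and 2.01. Cycling at 8 gave 4.59, 4.06 and 3.82, and 3.54 and 3.29; wild-type T-like barcodes were too few. Per-barcode means gave 3.67 (knockout macrophage-like), 2.86 (wild type pooled) and 2.77 (wild-type macrophage-like). Deeper resting barcodes gave 4.71 pooled and 3.81 T-like in the knockout, and 3.26 pooled in the wild type. Without the most abundant member the values were 4.38 pooled and 3.88 T-like in the knockout, and 3.18 and 3.76 in the wild type. Weighting resting types as in cycling barcodes, chosen after seeing the data, gave 3.41 and 2.92 pooled, so the mix of types holds part of the pooled values. For S- over G2M-weighted barcodes, 8 core genes gave -0.21 (knockout) and -0.63 (wild type), phase by genes detected -0.70 and -0.60, and per-barcode means -0.95 and -0.63. For the genotypes at rest, leaving out the most abundant member gave 0.28 (T-like), 0.40 (NK-like), 0.76 (B-like) and -0.69 (progenitor-like). Median-of-ratios scaling gave -0.36 (macrophage-like) and -0.42 (progenitor-like), since the median gene lay at -0.13 and -0.12 under scaling by total UMIs. Per-barcode means gave -0.71 in progenitor-like barcodes, and barcodes with no UMI of other lineages, haemoglobin aside (38 and 20), gave -0.92. With haemoglobin counted too few barcodes were left for any value. For the genotypes in cycling barcodes, 2 core genes gave 0.99 pooled, -0.030 macrophage-like (a turned sign) and 1.46 T-like. At 8 core genes macrophage-like barcodes gave 0.27, and per-barcode means gave 1.21, 0.42 and 0.56. The pooled 0.81 became 0.33 when macrophage-like and T-like barcodes were averaged with equal weight, also chosen after seeing the data. A filter of 5 CPM gave counts of 2 lower members in macrophage-like and 1 in progenitor-like barcodes. A 1.5-fold limit gave 2 lower in progenitor-like, 4 higher and 2 lower in T-like and 9 higher in B-like barcodes. The cause of these changes was otherwise not tested. The wild-type T-like and dendritic-like cycling groups hold few barcodes (20 and 19), and the wild-type progenitor-like cycling barcodes are shallow (median 3265 UMIs).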
